A study of Mus musculus with 58 samples.

Results

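Integrins are cell surface receptors made of 1 alpha and 1 beta subunit. This account follows 10 integrin subunit genes in mouse microglia, the resident macrophages of the brain: 6 alpha subunits (Itga4, Itga5, Itga6, Itga9, Itgal, Itgav) and 4 beta subunits (Itgb1, Itgb2, Itgb3, Itgb5). They were taken by gene symbol, and earlier results of these data were known when they were chosen. Counts of subunits that changed therefore do not describe an unselected family. The count tables list 24940 genes in an age series. They list 10277 genes in wild-type mice given antisense oligonucleotides (ASOs) and 10589 genes in ASO-treated knockout mice. All 10 were listed and passed the filter on low counts in the age series and the knockout ASO table. Of the 10, the table of wild-type ASO libraries lists 9 and leaves out Itgal.

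Forebrain microglia of C57BL/6 mice were sorted and their polyA RNA was sequenced. SgshKO mice lack Sgsh, which encodes a lysosomal sulfatase needed to break down heparan sulfate, and wild-type (WT) mice were their controls. The age series held 3 WT and 4 SgshKO libraries at 3 weeks, 2 and 2 at 4 months, and 4 and 7 at 8 months. ASOs lower their target transcript and were given once into the cerebral ventricles, with cells collected 14 days later at an age the labels do not give. In WT mice 5 groups of 4 libraries were injected with PBS, with the control ASO (ntc), or with one targeting Mitf, Tfeb or Tfe3, which encode related transcription factors of lysosomal genes. In SgshKO mice 8 libraries received ntc and 8 the Mitf and Tfe3 ASOs together. The sort gated on CD11b+, CD45low and CX3CR1+ cells. CD11b is the protein of Itgam, a partner of Itgb2, so the gate itself selected cells with an Itgb2-containing receptor. The labels give neither sex nor the mouse behind each library, so the tests measure the spread between libraries.

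An integrin's alpha and beta chains are joined before they reach the surface, and the pair decides which ligand is bound. Itgb2 is the leukocyte beta chain and joins Itgal, Itgam or Itgax to bind ICAMs and complement. Itgb1 joins Itga4, Itga5, Itga6 and Itga9, which bind VCAM and fibronectin (Itga4), fibronectin (Itga5), laminin (Itga6) and tenascin and osteopontin (Itga9). Itgav joins Itgb3 or Itgb5 and binds vitronectin, osteopontin and the bridging protein of apoptotic cells encoded by Mfge8. In microglia these receptors are known for adhesion, process movement and uptake of cells and debris.

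In the age series table (mm10) the genes lie as follows. Itgal spans chr7:127296260-127335137 and Itgb2 chr10:77530348-77565674, both on the plus strand. Itga4 (chr2:79255426-79333114), Itgav (chr2:83724397-83806917) and Itga6 (chr2:71786939-71858427) lie on the plus strand of chromosome 2. Itga9 spans chr9:118606709-118901003, Itgb1 chr8:128685654-128733579, Itgb3 chr11:104608000-104670471 and Itgb5 chr16:33829665-33949338 on the plus strand, and Itga5 chr15:103344286-103366791 on the minus strand.

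Library totals ran from 8191508 to 27106584 counts in the age series, from 14372015 to 30378870 counts in the WT ASO set and from 12517838 to 30431437 counts in the SgshKO ASO set. The Mitf ASO lowered Mitf to 3.56% of its ntc level, the Tfeb ASO Tfeb to 10.6% and the Tfe3 ASO Tfe3 to 19.2%, and the pair of ASOs in SgshKO left Mitf at 20.9% and Tfe3 at 47.3%. Sgsh transcript was 44.4 ± 12.3 CPM (SD, n = 4) in WT and 26.6 ± 4.75 CPM (SD, n = 7) in SgshKO at 8 months (edgeR adjusted p = 0.000583). Its difference did not pass at 3 weeks (edgeR adjusted p = 0.434) or 4 months (edgeR adjusted p = 0.334), and the labels do not say which part of the gene is changed, so this transcript does not check the genotype there. CPM is the count scaled to a common library size after TMM normalisation. All 8 microglial markers of a fixed list were detected in each group. Their summed level was 37952.6 to 46364.0 CPM in WT at 8 months and 28817.9 to 32159.4 CPM in SgshKO.

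Per length of transcript, in the TPM values the authors deposited, Itgb5 was the most abundant of the 10 subunits at every age in both genotypes. Itgb2 had the second highest mean, but in WT at 3 weeks its libraries (243 to 276 TPM) overlapped those of Itga6 (229 to 252 TPM). In WT at 8 months (n = 4) Itgb5 stood at 1045 ± 97.2 TPM (SD) and Itgb2 at 299 ± 15.2 TPM. Itga6 (155 ± 23.0 TPM) and Itgb1 (144 ± 15.3 TPM) came next, and their libraries overlapped. Itgav followed at 87.0 ± 7.79 TPM. Itga9 (52.7 TPM, range 51.7 to 54.6) and Itgb3 (43.2 ± 8.42 TPM) overlapped in turn. Itga5 was at 17.5 ± 3.89 TPM. Itgal (0.288 ± 0.192 TPM) and Itga4 (0.172 ± 0.115 TPM) were both far below the rest and could not be put in order.

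The order differed in SgshKO at 8 months (n = 7). Itgb5 (1010 ± 34.3 TPM, SD) and Itgb2 (429 ± 16.2 TPM) kept the first places, and Itgb1 (112 ± 7.47 TPM) and Itga6 (96.5 ± 17.9 TPM) again overlapped. Itga9, at 14.5 ± 1.76 TPM, stood below Itgb3 (25.1 ± 3.31 TPM) and Itga5 (23.1 ± 3.79 TPM), with no shared values. In WT at the same age it had stood above Itga5 in every library. Itgal (4.71 ± 2.51 TPM) and Itga4 (median 2.21 TPM) remained the lowest and overlapped.

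**Figure D1:**
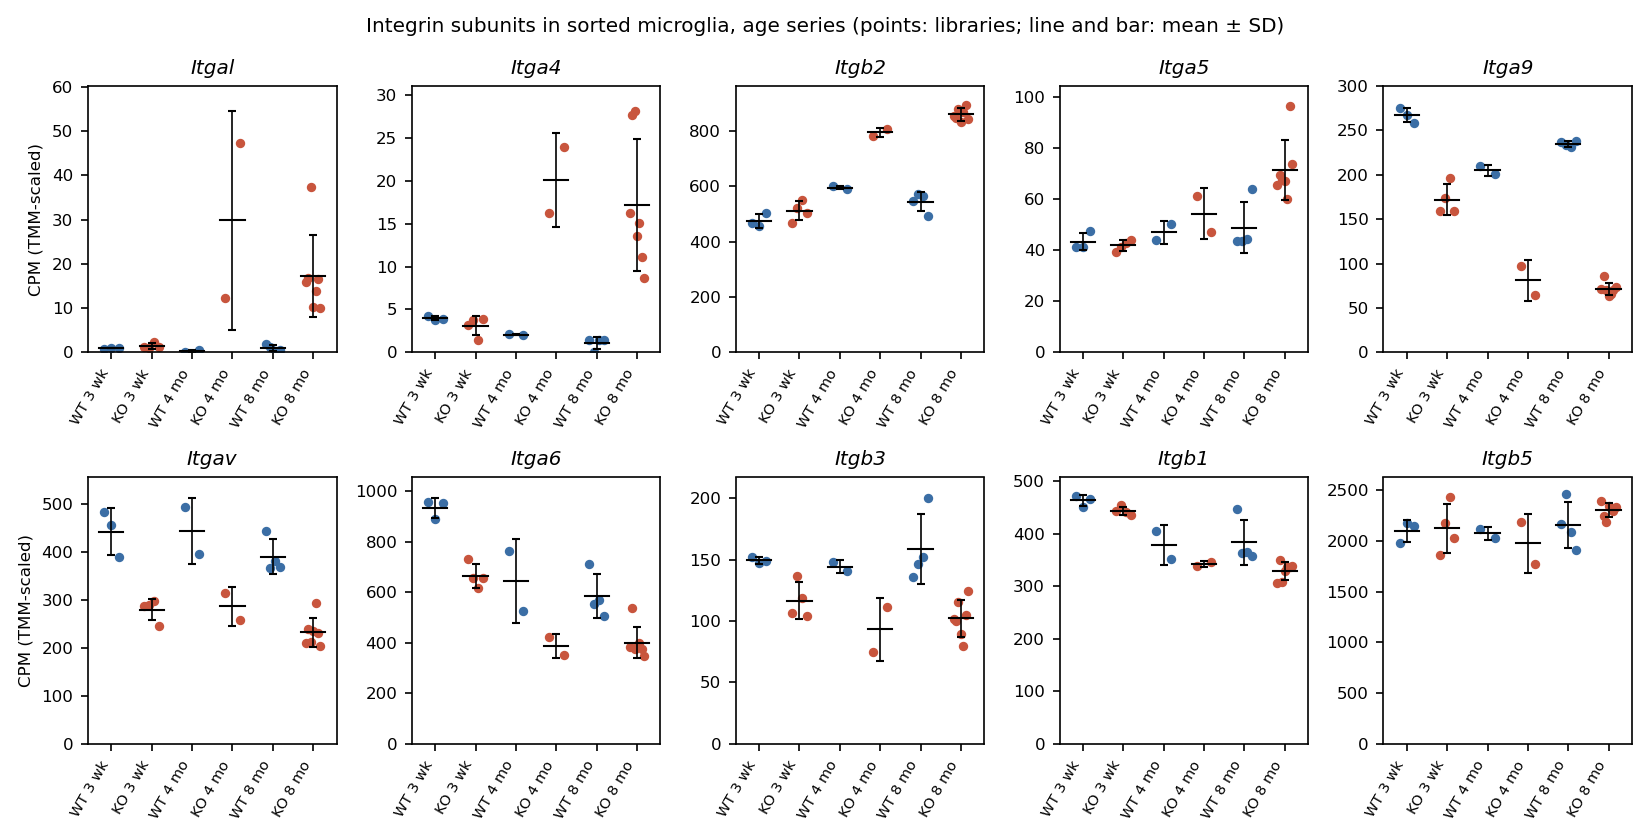
Expression of the 10 integrin subunits in the age series, in CPM, with 1 point per library, a line at the mean and a bar of 1 SD for WT (blue) and SgshKO (red, KO) at 3 weeks, 4 months and 8 months. Itgal, Itga4 and Itgb2 sit higher in all SgshKO libraries than in all WT libraries from 4 months on, Itga9 and Itgav sit lower in all SgshKO libraries at each age, and Itgb5 overlaps throughout.

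The comparison of SgshKO with WT at each age asks how loss of Sgsh changes expression. At 8 months 4 of the 10 subunits rose (Itgal, Itga4, Itgb2, Itga5), 5 fell (Itga9, Itgav, Itga6, Itgb3, Itgb1) and Itgb5 did not pass. Passing here is an adjusted p under 0.05 in edgeR's quasi-likelihood test over all genes, and 40.5% of the 14309 genes tested passed in this comparison, 21.6% higher and 18.9% lower. At 4 months 3 rose and 4 fell of 10, where 19.5% of all genes passed, 10.3% higher and 9.26% lower. At 3 weeks none rose and 3 fell (Itga9, Itgav, Itga6), where 9.03% of all genes passed, 5.31% higher and 3.72% lower. Limma on log2(TPM + 1) differs from edgeR on counts in test, scaling and genes, of which it tested 12021. With it the share of passing genes that were higher went from 53.3% to 33.6% at 8 months. That share went from 52.6% to 40.2% at 4 months and from 58.8% to 44.2% at 3 weeks. The median log2 fold change of the 10 subunits at 3 weeks was -0.20 and that of all genes -0.02. At 4 months these medians were -0.11 and 0.02, and at 8 months -0.06 and 0.02.

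**Figure D2:**
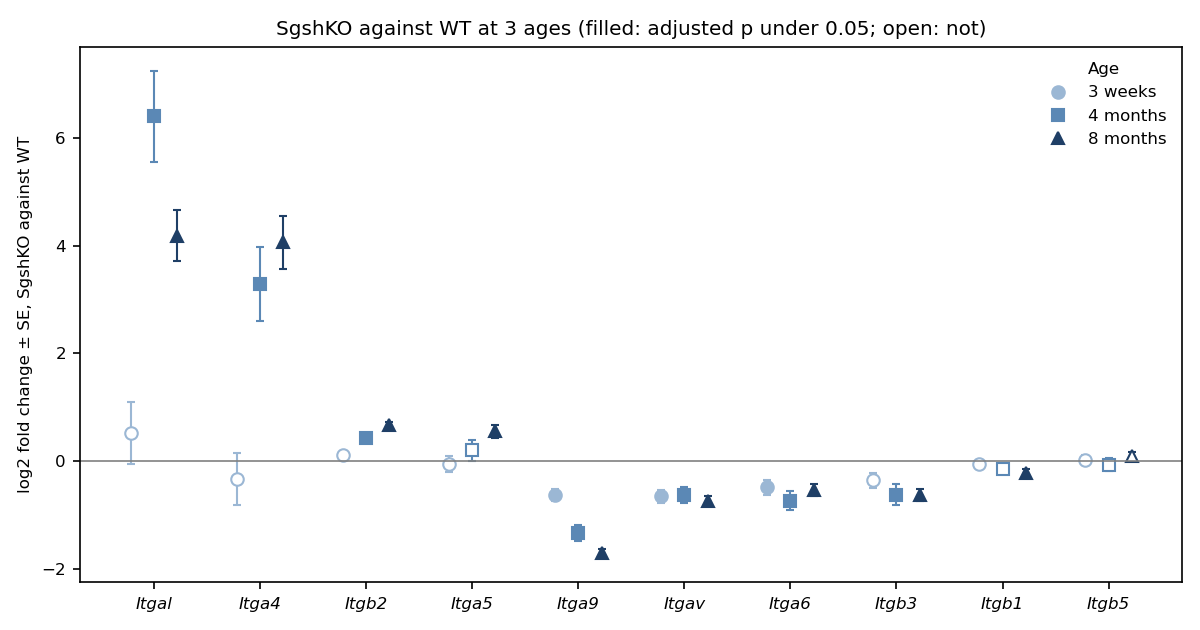
Log2 fold change of SgshKO against WT with its SE for each subunit at 3 weeks (circles), 4 months (squares) and 8 months (triangles), filled where the edgeR adjusted p was under 0.05. Itgal and Itga4 were not called at 3 weeks and stood above 3 at both later ages, while Itga9 went from -0.63 to -1.34 and -1.72.

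Itgal encodes the alpha chain of LFA, the leukocyte receptor for ICAMs. The WT libraries held 1.80, 1.12, 0.378 and 0.531 CPM at 8 months, and the 7 SgshKO libraries ran from 10.1 over a median of 16 to 37.4 CPM. At 4 months the WT libraries held 0.118 and 0.502 CPM, which is 1 and 7 counts, and the SgshKO libraries 12.3 and 47.4 CPM. At 3 weeks WT stood at 0.842, 0.963 and 1.06 CPM and SgshKO at 1.23, 0.951, 2.32 and 1.24 CPM. The genotypes overlapped at 3 weeks and were far apart at the later ages. The fitted log2 fold change was 4.18 (SE 0.47, edgeR adjusted p = 1.14e-07) at 8 months, 6.40 (SE 0.84, edgeR adjusted p = 5.17e-06) at 4 months and 0.52 (SE 0.58, edgeR adjusted p = 0.735) at 3 weeks. With so few WT counts the size at 4 months is loose, and leaving out SgshKO replicate 2 gave 5.07. The genotype effect was larger than at 3 weeks by 5.88 (SE 1.03, edgeR adjusted p = 0.00254) at 4 months and by 3.66 (SE 0.75, edgeR adjusted p = 0.00218) at 8 months.

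Itga4 encodes the alpha chain that binds VCAM and fibronectin and joins Itgb1 or Itgb7. At 8 months WT libraries held 1.46, 0, 1.42 and 1.42 CPM, and SgshKO ran from 8.67 over 15.1 to 28.2 CPM. At 4 months WT held 2.13 and 2.01 CPM and SgshKO 16.3 and 24.0 CPM. At 3 weeks WT held 4.21, 3.79 and 3.91 CPM and SgshKO 3.23, 3.80, 1.45 and 3.87 CPM. Itga4 was thus lower with age in WT and higher with age in SgshKO. The fitted log2 fold change between genotypes was 4.06 (SE 0.48, edgeR adjusted p = 2.69e-07) at 8 months and 3.29 (SE 0.69, edgeR adjusted p = 0.00121) at 4 months. From 3 weeks to 8 months Itga4 fell by 1.94 (SE 0.54, edgeR adjusted p = 0.0252) on the log2 scale in WT and rose by 2.45 (SE 0.42, edgeR adjusted p = 8.74e-05) in SgshKO. The fall in WT rests on low counts and did not pass with any WT 3-week library left out (adjusted p = 0.0698, 0.0593 and 0.0676 in edgeR), with the replicate number as a block (adjusted p = 0.054 in edgeR) or with limma on TPM (adjusted p = 0.300).

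Both genes are also expressed by blood leukocytes, and markers of neutrophils and monocytes moved with them. The summed lymphocyte markers overlapped between genotypes at 4 and 8 months. The summed level of 8 neutrophil markers was at most 7.3 CPM in any WT library and 1.7 to 29.3 CPM in SgshKO at 3 weeks. It was 2793.8 and 13827.0 CPM in SgshKO at 4 months and 405.9 to 5454.9 CPM at 8 months, where all 8 markers were detected. In WT at 8 months 7 of the 8 had counts and Retnlg had none. The summed level of 6 monocyte markers was 10.6 to 12.4 CPM in WT and 50.9 to 470.5 CPM in SgshKO at 8 months, and 8.2 to 10.3 CPM against 329.2 and 1417.9 CPM at 4 months. The summed level of 6 border macrophage markers was 15.8 to 32.1 CPM in WT and 56.3 to 105 CPM in SgshKO at 8 months, and that of the lymphocyte markers 17.8 to 21.6 CPM and 12.4 to 23.6 CPM. Of 7 lymphocyte markers 6 were listed, without Trac. At 8 months all 6 had counts in SgshKO, while Cd3g, Nkg7 and Cd79a had none in WT. At 4 months 3 of the 6 had counts in WT and 2 in SgshKO. The 2 libraries with the most Itgal, SgshKO replicate 2 at 4 months and replicate 3 at 8 months, were also those with the most neutrophil markers. In bulk RNA, more cells of another type and more transcript per cell cannot be told apart.

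**Figure D3:**
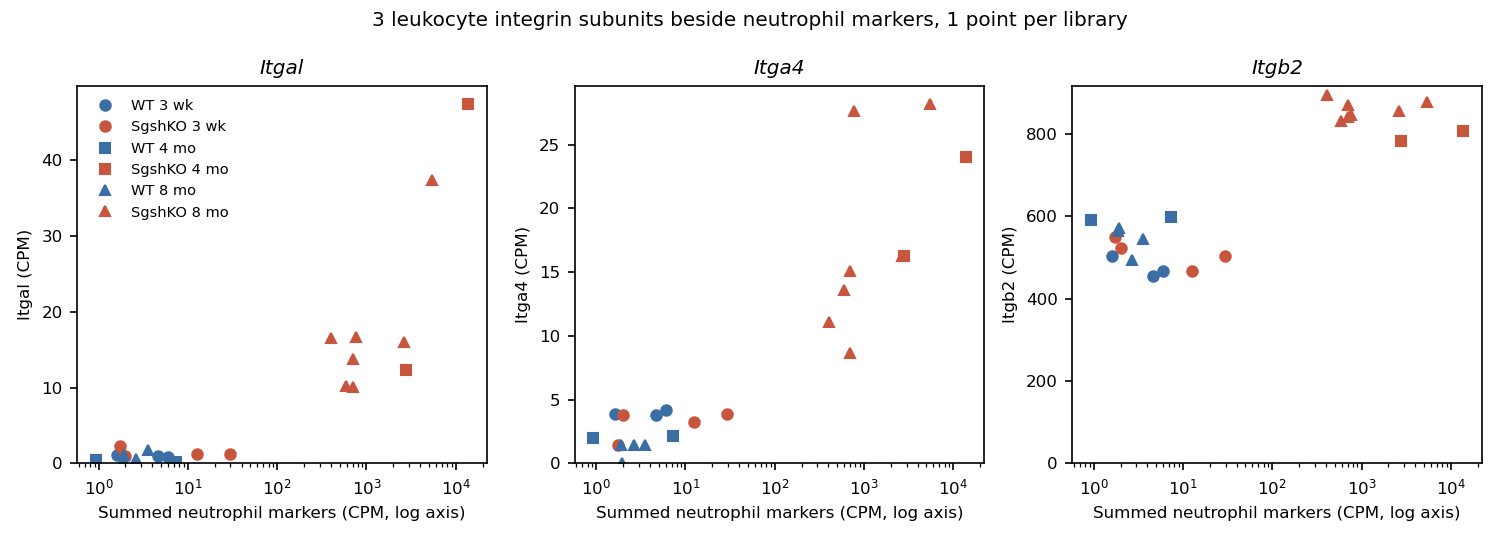
Itgal, Itga4 and Itgb2 in CPM against the summed CPM of 8 neutrophil markers (log axis), with 1 point per library of the age series, WT in blue and SgshKO in red. SgshKO libraries at 4 and 8 months lie at 405.9 CPM of neutrophil markers or more, the 2 highest Itgal values belong to the 2 highest marker sums.

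Without SgshKO replicates 1 and 3 at 8 months, whose neutrophil markers summed to over 1000 CPM, the same contrast at 8 months gave 3.81 for Itgal (SE 0.43, edgeR adjusted p = 2.22e-07) and 3.86 for Itga4 (SE 0.50, edgeR adjusted p = 1.71e-06). This choice was made after seeing the data. The remaining 5 libraries still held 405.9 CPM of these markers or more, so the part of other leukocytes in both differences was not tested. The 3 genes whose log2 CPM followed Itgal most closely over the 22 libraries were Mmp8 (Pearson r = 0.945), Cxcr4 (r = 0.941) and Pglyrp1 (r = 0.941). Mmp8, a collagenase of neutrophil granules, is one of the 8 neutrophil markers. Pglyrp1 encodes a peptidoglycan-binding protein of the same granules, and Cxcr4 a chemokine receptor of many leukocytes. These libraries fall into 6 groups of age and genotype, so r is a description. The labels state no batch for them.

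Itgb2, the shared beta chain of the leukocyte integrins, was abundant in every library and rose more modestly. WT libraries held 546, 571, 565 and 494 CPM at 8 months, and SgshKO ran from 831 over 855 to 895 CPM. At 4 months WT held 599 and 592 CPM and SgshKO 783 and 806 CPM. WT at 3 weeks held 467, 455 and 504 CPM and SgshKO 468, 523, 550 and 503 CPM. The genotypes overlapped at 3 weeks and did not at the later ages. The log2 fold change was 0.66 (SE 0.06, edgeR adjusted p = 2.23e-09) at 8 months and 0.42 (SE 0.09, edgeR adjusted p = 0.00206) at 4 months. At 8 months it was 0.65 without the 2 libraries of most neutrophil markers (SE 0.07, edgeR adjusted p = 4.64e-08). All SgshKO libraries at 8 months held at least 405.9 CPM of neutrophil markers against at most 3.54 CPM in WT, and the part of these cells in the rise of Itgb2 was not tested. The 4-month call did not hold without SgshKO replicate 2 (edgeR adjusted p = 0.0548). The genotype effect at 8 months exceeded that at 3 weeks by 0.56 (SE 0.09, edgeR adjusted p = 0.000218).

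Itga5, the fibronectin receptor chain, was the fourth subunit that rose. WT held 43.8, 43.6, 44.3 and 63.9 CPM at 8 months and SgshKO ran from 60.03 over 67.4 to 96.6 CPM. A single WT library, replicate 4, reached into the SgshKO range. The log2 fold change was 0.55 (SE 0.12, edgeR adjusted p = 0.000674), and those at 4 months (0.20) and 3 weeks (-0.05) did not pass (edgeR adjusted p = 0.529 and 0.917). The genotype effect was larger at 8 months than at 3 weeks by 0.60 (SE 0.19, edgeR adjusted p = 0.042), a call that was lost without any single 3-week library (edgeR adjusted p = 0.0548 to 0.132). It was also lost without WT 8-month replicate 1, 2 or 3 (edgeR adjusted p = 0.0834 to 0.0903) or SgshKO 8-month replicate 2, 3, 6 or 7 (edgeR adjusted p = 0.0501 to 0.0589). Without both libraries of most neutrophil markers it did not pass (edgeR adjusted p = 0.0517), nor with limma on TPM (adjusted p = 0.0964). Endothelial markers, from cells that also express Itga5, summed to 10.3 to 26.5 CPM in WT and 25.0 to 45.7 CPM in SgshKO at 8 months, with Ly6c1 at 0 in WT and Cldn5 at 0 in SgshKO. Their part in the rise was not tested.

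Itga9 had the largest fall of the 10 at 4 and 8 months. It encodes an alpha chain that joins Itgb1 and binds tenascin, osteopontin and VCAM. At 3 weeks WT held 275, 267 and 259 CPM and SgshKO 159, 174, 196 and 159 CPM. WT held 210 and 201 CPM at 4 months and SgshKO 97.5 and 64.8 CPM. At 8 months WT held 237, 233, 231 and 238 CPM and SgshKO ran from 62.9 over 70.5 to 85.6 CPM. The genotypes did not overlap at any age, and the gap widened. The log2 fold change was -0.63 (SE 0.11, edgeR adjusted p = 0.000212) at 3 weeks, -1.34 (SE 0.15, edgeR adjusted p = 4.02e-07) at 4 months and -1.72 (SE 0.09, edgeR adjusted p = 8.14e-14) at 8 months, where WT was 3.29 times as high. The effect at 8 months exceeded that at 3 weeks by -1.08 (SE 0.14, edgeR adjusted p = 1.23e-05). In WT the change from 3 weeks to 8 months did not pass (-0.19, edgeR adjusted p = 0.349), and in SgshKO Itga9 fell by 1.27 (SE 0.09, edgeR adjusted p = 1.05e-10) on the log2 scale. The mean sum of microglial markers was also lower in SgshKO than in WT at each age. It was 45488 against 50796 CPM at 3 weeks, 29033 against 44166 CPM at 4 months and 30783 against 42790 CPM at 8 months. The part of the mix of cells in the falls of Itga9, Itgav, Itga6 and Itgb1 was not tested.

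Itgav was lower by a similar factor at each age. It is the alpha chain of the vitronectin receptors and of receptors that release active TGF-beta. At 3 weeks WT held 485, 456 and 389 CPM and SgshKO 287, 291, 297 and 247 CPM. At 4 months WT held 494 and 396 CPM and SgshKO 316 and 258 CPM. At 8 months WT held 444, 366, 382 and 370 CPM and SgshKO ran from 205 over 231 to 293 CPM. The genotypes did not overlap at any age. The log2 fold change was -0.66 (SE 0.12), -0.63 (SE 0.15) and -0.75 (SE 0.09) at the 3 ages, with edgeR adjusted p = 0.000324, 0.00459 and 6.2e-07. The effect at 8 months did not differ past the threshold from that at 3 weeks (-0.09, SE 0.15, edgeR adjusted p = 0.809). At 4 months, with 2 libraries a group, the call was lost without WT replicate 1 (-0.45, edgeR adjusted p = 0.108) or SgshKO replicate 2 (-0.54, edgeR adjusted p = 0.0614).

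The RefSeq promoter table of GRCm38.p6 holds 6 of the 10 subunits (Itga4, Itga5, Itga9, Itgav, Itgb1, Itgb5). The 250 bases before the start are shown for Itgav, which fell in SgshKO and with the Mitf ASO, and for Itga4, which rose in SgshKO. CACGTG, a sequence that MITF, TFEB and TFE3 can bind, was searched on both strands. It was in these windows of none of the 6 subunits and of 6.02% of all 32851 promoters. GAGGAAGT, a form of the sequence bound by the macrophage factor PU.1, was found in 1 of the 6, Itgav, as ACTTCCTC on the strand shown, and in 2.44% of all promoters. The Itga9 window in that table lies inside the gene and not at the start that the count file gives. Capitals mark the match. No match says only that these letters are not in this window.

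Itgav promoter, chr2:83724147-83724396, plus strand: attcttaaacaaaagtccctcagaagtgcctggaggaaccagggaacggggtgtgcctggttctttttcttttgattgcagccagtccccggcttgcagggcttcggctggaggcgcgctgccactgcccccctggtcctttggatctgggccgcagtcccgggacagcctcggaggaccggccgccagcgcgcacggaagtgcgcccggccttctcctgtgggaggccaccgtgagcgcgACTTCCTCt
Itga4 promoter, chr2:79255176-79255425, plus strand: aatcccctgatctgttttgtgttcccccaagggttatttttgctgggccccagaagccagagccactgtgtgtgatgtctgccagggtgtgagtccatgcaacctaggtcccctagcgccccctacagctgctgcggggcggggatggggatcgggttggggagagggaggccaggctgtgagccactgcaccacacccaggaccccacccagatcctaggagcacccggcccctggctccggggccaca

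Itga6, the laminin receptor chain, was lower in SgshKO and also lower with age in both genotypes. At 3 weeks WT held 959, 890 and 955 CPM and SgshKO 730, 656, 615 and 657 CPM. At 8 months WT held 710, 553, 571 and 505 CPM and SgshKO ran from 348 over 383 to 539 CPM. At 8 months only SgshKO replicate 2 overlapped the WT range. The genotype difference was -0.49 (SE 0.13, edgeR adjusted p = 0.0185) at 3 weeks, -0.74 (SE 0.18, edgeR adjusted p = 0.00432) at 4 months and -0.54 (SE 0.11, edgeR adjusted p = 0.000275) at 8 months. The 3-week call was lost without WT replicate 1 or 3 or SgshKO replicate 3 (edgeR adjusted p = 0.0726, 0.066 and 0.0589). At 4 months it was -0.43 (edgeR adjusted p = 0.175) without WT replicate 1 and -0.66 (edgeR adjusted p = 0.0501) without SgshKO replicate 2. From 3 weeks to 8 months Itga6 fell by 0.68 (SE 0.13, edgeR adjusted p = 0.00166) in WT and by 0.73 (SE 0.11, edgeR adjusted p = 1.46e-05) in SgshKO on the log2 scale.

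Itgb3 joins Itgav in microglia and Itga2b in platelets. Its level at 8 months was 136, 146, 152 and 200 CPM in WT and SgshKO ran from 79.8 over 101 to 124 CPM. The groups did not overlap, and WT replicate 4 stood above the other WT libraries. The log2 fold change was -0.64 (SE 0.12, edgeR adjusted p = 9.9e-05) at 8 months and -0.63 (SE 0.19, edgeR adjusted p = 0.0224) at 4 months, and -0.36 (SE 0.14) at 3 weeks did not pass (edgeR adjusted p = 0.142). With 2 libraries a group the 4-month value was -0.41 (edgeR adjusted p = 0.224) without SgshKO replicate 1 and -0.996 (edgeR adjusted p = 0.00493) without replicate 2. It did not pass without WT replicate 1 or 2 either (edgeR adjusted p = 0.127 and 0.0897). The summed level of 4 platelet markers, Itga2b among them, was 26.3 to 43.8 CPM in WT and 0.97 to 5.85 CPM in SgshKO at 8 months. Ppbp was at 0 in all 6 groups of the age series. At 3 weeks the sum was 37.7 to 41.0 CPM in WT and 14.2 to 17.1 CPM in SgshKO. The part of platelets in the fall of Itgb3 was not tested.

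The most widely shared beta chain, Itgb1, changed little. Its libraries held 448, 364, 365 and 358 CPM in WT at 8 months and SgshKO ran from 306 over 337 to 349 CPM, without overlap. The log2 fold change was -0.22 (SE 0.06, edgeR adjusted p = 0.00841), and without WT replicate 1 it was -0.14 (edgeR adjusted p = 0.085). At 3 weeks and 4 months Itgb1 did not pass (-0.06 and -0.14, edgeR adjusted p = 0.769 and 0.382). Itgb5, the most abundant subunit, passed at no age. WT held 2171, 2461, 2087 and 1907 CPM at 8 months and SgshKO ran from 2184 over 2323 to 2395 CPM, within the WT range. Its log2 fold change was 0.09 (SE 0.07, edgeR adjusted p = 0.329), and with limma on TPM in place of edgeR on counts its sign turned at 3 weeks and 8 months.

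Each genotype was also followed over age. Between 3 weeks and 8 months 3 of 10 fell in WT (Itga4, Itga6, Itgb1) and none rose in edgeR, where 7.65% of all genes passed, 3.02% higher and 4.63% lower. In SgshKO 4 rose (Itgal, Itga4, Itga5, Itgb2) and 4 fell (Itga9, Itga6, Itgav, Itgb1), where 30.6% of all genes passed, 15.5% higher and 15.1% lower. Itgb2 rose by 0.75 (SE 0.06, edgeR adjusted p = 1.02e-09) and Itga5 by 0.77 (SE 0.12, edgeR adjusted p = 3.17e-05) in SgshKO. Itgb2, at 0.19 in WT (edgeR adjusted p = 0.0967), was called higher by DESeq2 (adjusted p = 0.0249) and by limma on TPM (adjusted p = 0.0264). In WT the fall of Itgb1 was 0.27 on the log2 scale (edgeR adjusted p = 0.0333) and did not pass without any WT 3-week library or WT 8-month replicate 2, 3 or 4 (edgeR adjusted p = 0.0673 to 0.114). In SgshKO the fall of Itgav was 0.27 (edgeR adjusted p = 0.0346) and did not pass without 3-week replicate 1, 2 or 3 or 8-month replicate 1, 3 or 7 (edgeR adjusted p = 0.0532 to 0.0887). Without both 8-month libraries of most neutrophil markers it was -0.22 (edgeR adjusted p = 0.109). Whether the genotypes differed in their course is tested by the change of the genotype effect with age. Between 8 months and 3 weeks that effect differed for 5 of 10 subunits (Itga4, Itgal, Itga5, Itgb2 higher, Itga9 lower), where 9.25% of all genes passed, 5.98% higher and 3.26% lower. Between 4 months and 3 weeks it differed for Itga4, Itgal and Itga9, where 2.52% passed, 1.63% higher and 0.895% lower. At 4 months Itga9 kept its call in none of the fits without a 4-month WT library, SgshKO 4-month replicate 2 or any WT 3-week library, nor without SgshKO 3-week replicate 2 or 3 (edgeR adjusted p = 0.054 to 0.198). Itga4 lost its call there without WT replicate 1, WT replicate 2 or SgshKO replicate 2 (edgeR adjusted p = 0.101, 0.148 and 0.106). Between 8 and 4 months it passed for none of the 10 with edgeR or DESeq2, where 0.391% of all genes passed with edgeR, 0.259% higher and 0.133% lower, and 3 of the 10 had an unadjusted p under 0.05.

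The rest of the family was taken from a fixed list. Of 16 other integrin subunits, 12 passed the filter on low counts, and at 8 months 2 rose and 2 fell, which is 33.3% of them against 40.5% of all genes. Itgax, the gene of CD11c, rose by 4.02 (SE 0.25, edgeR adjusted p = 3.32e-12) from 15.2 to 26.0 CPM in WT to 177 to 494 CPM in SgshKO. Itgax had passed already at 3 weeks (1.12, SE 0.26, edgeR adjusted p = 0.00603), when its partner Itgb2 had not. Itgb8 rose by 2.36 (SE 0.90, edgeR adjusted p = 0.0385) at levels of at most 2.01 CPM. Itgae fell by 1.61 (SE 0.28, edgeR adjusted p = 4.2e-05) on the log2 scale. Itgam, named after its value was seen because it is the gate marker, fell by 0.20 (SE 0.08, edgeR adjusted p = 0.0367).

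Among 30 cytoplasmic adaptors and activators of integrins 28 were tested, and at 8 months 6 rose and 4 fell, which is 35.7% of them against 40.5% of all genes. Rasgrp2, an exchange factor for the Rap GTPases that activate integrins, rose by 2.91 (SE 0.97, edgeR adjusted p = 0.0187). It was at 0.271 to 8.92 CPM in SgshKO and at most 0.531 CPM in WT. At 3 weeks its difference was 0.14 (edgeR adjusted p = 0.983) and at 4 months 5.88 (edgeR adjusted p = 0.0154). Cytip, which restrains Itgb2-dependent adhesion through cytohesin, rose by 2.79 (SE 0.29, edgeR adjusted p = 2.27e-08). Parvb, which links integrin-linked kinase to actin, rose by 1.75 (SE 0.11, edgeR adjusted p = 1.93e-12) and had risen at 3 weeks by 1.93 (SE 0.13, edgeR adjusted p = 2.11e-10). The median of the 28 was 0.07 and that of all genes 0.02 on the log2 scale. Neutrophil and monocyte markers were also higher in SgshKO at 8 months, and their part in these changes was not tested.

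Among 26 ligands and ligand partners 21 were tested, and at 8 months 9 rose and 4 fell, which is 61.9% of them against 40.5% of all genes. Spp1, which encodes osteopontin, a ligand of Itgav, Itga4 and Itga9 receptors, rose by 5.72 (SE 0.47, edgeR adjusted p = 5.14e-10), from 0.436 to 6.19 CPM in WT to 42.1 to 162 CPM in SgshKO. Fn1, which encodes fibronectin, the ligand of Itga5 and Itga4, rose by 3.43 (SE 0.50, edgeR adjusted p = 5.14e-06). Vcam1, whose protein is bound by Itga4 and Itga9, rose by 2.99 (SE 0.21, edgeR adjusted p = 2.57e-11). The median over the 21 was 0.82. At 3 weeks 2 of the 21 rose and 2 fell (19.0% against 9.03% of all genes), and at 4 months 5 rose and 3 fell (38.1% against 19.5%). The part of other cell types in the changes of the ligands and of the other integrin subunits was not tested either.

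The ASO experiments ask whether lowering Mitf, Tfeb or Tfe3 changes expression. Itgb2 passed in 5 of these 8 contrasts. In WT mice PBS libraries held 722, 718, 759 and 726 CPM and ntc libraries 753, 765, 791 and 743 CPM. With the Mitf ASO Itgb2 stood at 957, 994, 924 and 905 CPM, with the Tfe3 ASO at 958, 993, 1011 and 972 CPM and with the Tfeb ASO at 875, 850, 848 and 837 CPM. All 12 libraries of the 3 targeting ASOs lay above all 8 control libraries. Against ntc the log2 difference was 0.31 with the Mitf ASO (SE 0.04, edgeR adjusted p = 4.06e-05) and 0.37 with the Tfe3 ASO (SE 0.04, edgeR adjusted p = 3.24e-05). With the Tfeb ASO it was 0.16 (SE 0.04) and did not pass (edgeR adjusted p = 0.0529), although it did with DESeq2 (adjusted p = 0.00569). Itgb2 was lower with the Tfeb than with the Tfe3 ASO by 0.21 (SE 0.04, edgeR adjusted p = 0.00825). It was higher with the Mitf than with the Tfeb ASO by 0.15 (SE 0.04, edgeR adjusted p = 0.0345). Without Mitf replicate 1 or 2 or Tfeb replicate 2, 3 or 4 the Mitf and Tfeb ASOs did not differ past the threshold (edgeR adjusted p = 0.0787 to 0.127). Without the replicate number in the model the last pair of differences did not pass (edgeR adjusted p = 0.101 and 0.248). The 3 contrasts with ntc share the same 4 ntc libraries. Genes listed for the WT ASO libraries include 0 of the 8 neutrophil markers and 1 of the 6 monocyte markers. The part of such cells in these Itgb2 differences was therefore not tested.

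**Figure D4:**
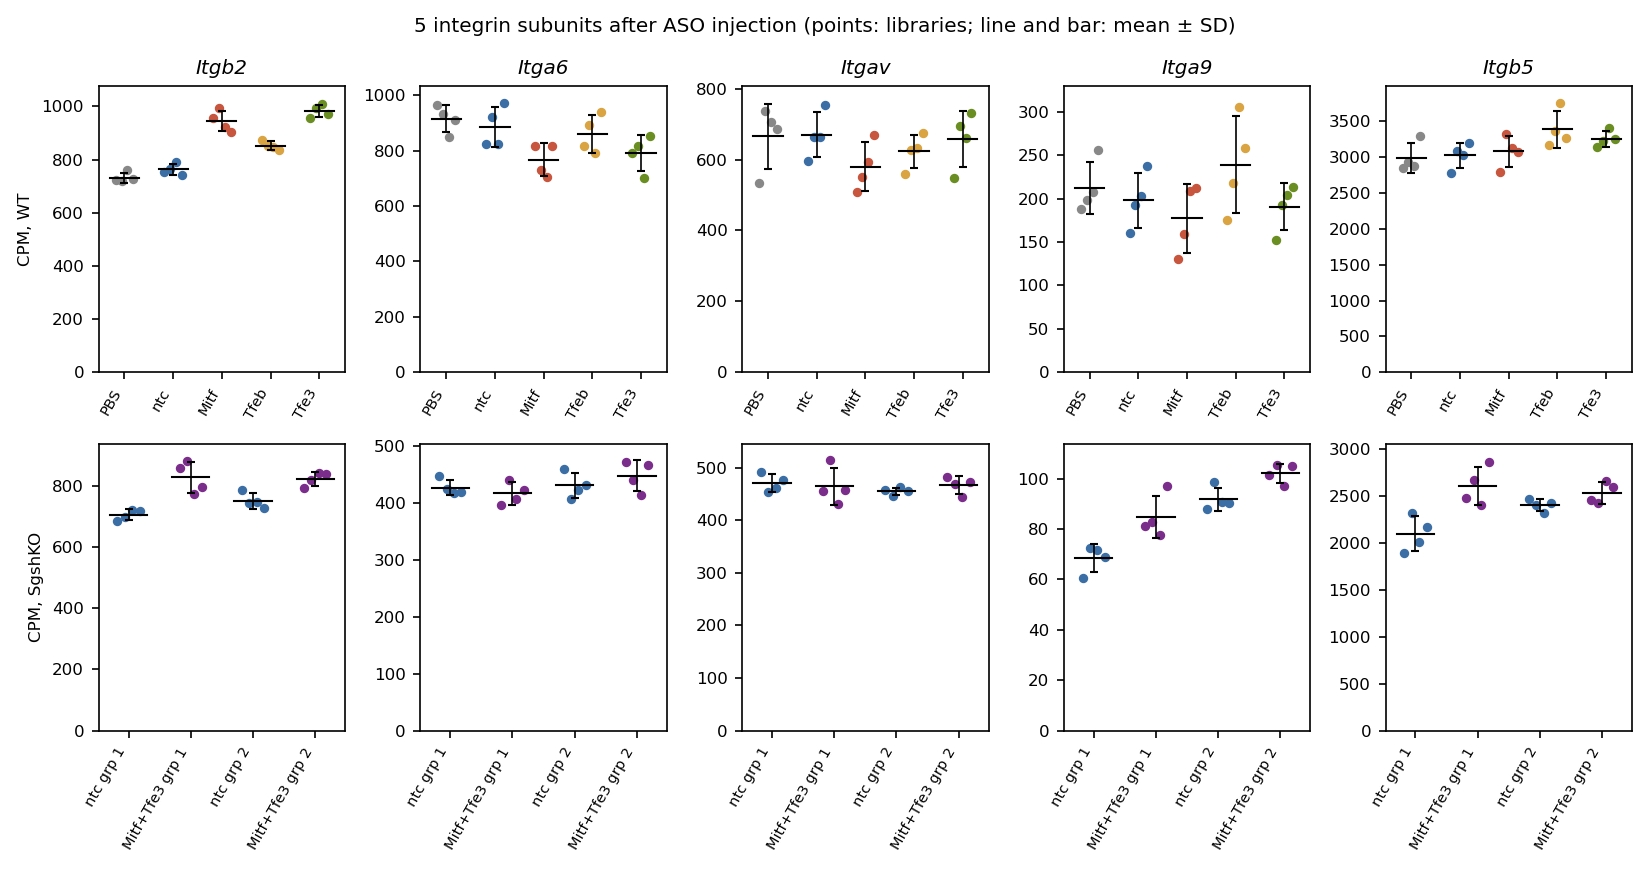
CPM of 5 subunits in WT libraries given PBS, ntc or 1 of the 3 targeting ASOs (top) and in SgshKO libraries given ntc or the Mitf and Tfe3 ASOs in grp 1 and grp 2 (bottom), with points for libraries, a line at the mean and a bar of 1 SD. Itgb2 lies above every control library with each ASO in WT, and the SgshKO values of Itga9 and Itgb5 differ between grp 1 and grp 2 as well as between treatments.

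With the Mitf ASO 3 of 9 subunits passed against ntc, Itgb2 higher and Itga6 and Itgav lower, where 11% of all genes passed, 5.77% higher and 5.21% lower. Itga6 held 824, 922, 825 and 971 CPM with ntc and 818, 730, 707 and 819 CPM with the Mitf ASO, a log2 difference of -0.20 (SE 0.05, edgeR adjusted p = 0.0138). Itgav held 597, 665, 664 and 754 CPM with ntc and 507, 550, 594 and 670 CPM with the Mitf ASO, a difference of -0.21 (SE 0.05, edgeR adjusted p = 0.0184). For Itgav the ranges overlapped, and within each replicate number the Mitf library was the lower. Without the replicate number in the model neither passed (edgeR adjusted p = 0.223 for Itga6 and 0.422 for Itgav). Both were lost without ntc replicate 4 (edgeR adjusted p = 0.0561 and 0.0635) or Mitf replicate 2 (edgeR adjusted p = 0.0757 and 0.106). Itgav was also lost without ntc replicate 1 (edgeR adjusted p = 0.0936), Mitf replicate 1 (edgeR adjusted p = 0.0506) or Mitf replicate 3 (edgeR adjusted p = 0.0506).

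With the Tfeb ASO none of 9 subunits passed in edgeR, where 0.778% of all genes did (0.564% higher, 0.214% lower). Of these 9, 3 had an unadjusted p under 0.05, and DESeq2 called 1. With the Tfe3 ASO Itgb2 was the 1 subunit that passed, where 2.16% of all genes did (1.46% higher, 0.701% lower). Itga9 was lower with the Mitf than with the Tfeb ASO by 0.43 (SE 0.08, edgeR adjusted p = 0.00607) on the log2 scale, but neither ASO changed it past the threshold against ntc (-0.17 and 0.26, edgeR adjusted p = 0.179 and 0.151). Itga9 held 130, 159, 208 and 212 CPM with the Mitf ASO and 175, 218, 305 and 258 CPM with the Tfeb ASO. Its call between these ASOs was lost without the replicate number (edgeR adjusted p = 0.542) and with limma on the batch-corrected signal (adjusted p = 0.0647). Of 9 subunits 2 differed between the Mitf and Tfeb ASOs, where 3.53% of all genes passed (1.67% higher, 1.86% lower). Between the Tfeb and Tfe3 ASOs 1 differed, where 1.62% passed (1.07% higher, 0.555% lower). Between the Mitf and Tfe3 ASOs none passed in edgeR, where 3.76% of all genes did (2.63% higher, 1.13% lower), while 1 had an unadjusted p under 0.05 and DESeq2 called 1. Between ntc and PBS no subunit and 0% of the 10277 genes passed in edgeR. At an unadjusted p under 0.05 there were 415 genes and none of the subunits, and DESeq2 called 2 genes, neither of them a subunit. There the member differences ran from -0.16 (Itga5) to 0.06 (Itgb2). Both ASO tables, WT and SgshKO, name a non-coding transcript for Itga4 and Itga6 and a decay-targeted one for Itga5, and whether their counts are per gene or per transcript is not given in the sources used here.

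In SgshKO mice the Mitf and Tfe3 ASOs together raised 3 of 10 subunits and lowered none, where 9.33% of all genes passed, 4.84% higher and 4.5% lower. Itgb2 ran from 685 over a median of 723 to 786 CPM with ntc and from 774 over 827 to 880 CPM with the ASOs, a log2 difference of 0.18 (SE 0.04, edgeR adjusted p = 0.00581). Itga9 ran from 60.5 over 80.2 to 98.5 CPM with ntc and from 77.8 over 97.0 to 105 CPM with the ASOs, a difference of 0.23 (SE 0.05, edgeR adjusted p = 0.0121). Itgb5 ran from 1893 over 2315 to 2469 CPM with ntc and from 2409 over 2540 to 2858 CPM with the ASOs, a difference of 0.19 (SE 0.05, edgeR adjusted p = 0.0281). The ranges overlapped for all 3 genes, and the libraries came in grp 1 and grp 2, each with 4 libraries per treatment. Within grp 1 the differences were 0.24 for Itgb2, 0.32 for Itga9 and 0.33 for Itgb5, and within grp 2 they were 0.12, 0.14 and 0.07. None of these 6 values passed alone (edgeR adjusted p = 0.0671 to 0.404), with 4 libraries a group. Without grp in the model Itga9 (edgeR adjusted p = 0.213) and Itgb5 (edgeR adjusted p = 0.0586) did not pass, nor did Itga9 with limma on the batch-corrected signal (adjusted p = 0.0619). Itgb5 was also lost without ntc replicate 3 of grp 1 or grp 2, combination replicate 3 of grp 2 or combination replicate 4 of grp 1 (edgeR adjusted p = 0.0508, 0.0535, 0.0513 and 0.0535).

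The 2 subunits with the largest rise in SgshKO in the age series, Itgal and Itga4, did not pass with the combination. The SgshKO ASO set holds no WT libraries, so whether either gene was raised in it was not tested. Itgal ran from 2.67 to 5.28 CPM with ntc and from 2.0 to 5.22 CPM with the ASOs (0.06, SE 0.19, edgeR adjusted p = 0.88), and Itga4 from 2.96 to 6.87 CPM and from 2.87 to 5.56 CPM (-0.23, SE 0.16, edgeR adjusted p = 0.419). The 5 neutrophil markers listed in that table summed to 1.0 to 515.9 CPM with ntc and 1.0 to 329.1 CPM with the ASOs. Of the other integrin subunits 4 were tested in SgshKO, and Itgax fell by 0.64 (SE 0.04, edgeR adjusted p = 4.62e-08) while Itgam rose by 0.16 (SE 0.04, edgeR adjusted p = 0.0167). There Itgb2, its partner, rose. In WT 3 other integrin subunits were tested. With the Mitf ASO 1 rose, Itgax, by 1.04 (SE 0.21, edgeR adjusted p = 0.00411), where 11% of all genes passed. With the Tfe3 ASO 2 rose, Itgae among them by 1.15 (SE 0.21, edgeR adjusted p = 0.00657), where 2.16% passed. With the Tfeb ASO 0 of the 3 passed, where 0.778% did. Itgax did not pass with the Tfe3 (0.35, edgeR adjusted p = 0.441) or Tfeb ASO (0.16, edgeR adjusted p = 0.768).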

How the data were processed

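PolyA RNA-seq libraries of sorted microglia were used: 22 in an age series, 20 from WT and 16 from SgshKO mice given ASOs. The authors deposited raw counts, 1 row a gene, and the age series also in TPM. Per the file headers the age series rows are RefSeq transcripts, and each ASO row names 1 Ensembl gene and 1 transcript, without saying which of these was counted. For the ASO sets they also deposited a normalised, batch-corrected signal. The submitters' processing notes name mm10, STAR 2.5.3a, kallisto 0.44.0, HOMER 4.11, DESeq2 1.36.0 and R 4.2.3 without saying what each did. Any strand setting of the counting is not given in the sources used here. Here counts were tested per file with edgeR 4.0.16, by its quasi-likelihood method after TMM scaling (minimum count 10, Benjamini-Hochberg over all genes, threshold 0.05), in R 4.3.3. The age model held the 6 groups. The WT ASO model also held the replicate number, called grp in the titles. Among 40 pairs of same-numbered WT ASO libraries 38 had a correlation of residuals over 0.1 (median 0.363). PBS replicate 4 has grp 4 in its title and grp 3 in its column name and was put in grp 4. The SgshKO ASO model held grp. An SE is the log2 fold change divided by the square root of F. DESeq2 1.42.0, limma 3.58.1 on TPM and signal, other filters and scalings and left-out libraries were alternatives. The tests were tried on simulated data for SgshKO against WT at 8 months, the Mitf ASO against ntc and the combination. That simulation covered no changed genes of very low counts, no comparison at 4 months and no change of the genotype effect with age. Members, gene lists and rules were chosen with earlier results of these data known: all 10 members, the 3 genes of each list with the largest change among those that passed at 8 months, and the 3 most like the member that changed most.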

Additional observations from a re-analysis of the deposited data

Results flagged for a closer look

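The genotype effect differed between ages for several integrin subunits by the test of the difference itself. Between 4 months and 3 weeks the log2 difference of the effect was 3.62 for Itga4, 5.88 for Itgal and -0.71 for Itga9. Between 8 months and 3 weeks it was 4.39 for Itga4, 3.66 for Itgal, 0.60 for Itga5, 0.56 for Itgb2 and -1.08 for Itga9. The 4-month calls rest on 2 libraries a genotype. That of Itga9 was also lost with a replicate block and with a single WT 3-week library left out, whichever it was. The Itga5 call at 8 months against 3 weeks was lost in 17 of 25 alternative fits.

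In 9 of 95 sets, each 1 gene in 1 group of 4 to 8 libraries, 1 library stood far from the rest of its group by Dixon's test, and chance flags about 1 in 20 groups. In SgshKO at 8 months these were Itga5 in replicate 6 (96.6 CPM, next 74.0), Itga6 in replicate 2 (539 CPM, next 400), Itgal in replicate 3 (37.4 CPM, next 16.7) and Itgav in replicate 5 (293 CPM, next 241). In WT at 8 months they were Itga4 in replicate 2 (0 CPM, next 1.42), Itga5 in replicate 4 (63.9 CPM, next 44.3) and Itgb1 in replicate 1 (448 CPM, next 365). Among WT ASO libraries Itga4 stood high in PBS replicate 2 (4.53 CPM, next 2.44) and Itgb1 low in Tfe3 replicate 3 (487 CPM, next 522). SgshKO replicate 3 at 8 months also had the most neutrophil markers of its group.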

How the results depend on the processing

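No called difference of an integrin subunit changed sign under any alternative. Of 153 gene and comparison pairs 48 were called, 6 only under another setting and 99 under none, and 36 of these 99 changed sign in some setting. Of 830 recomputed values of called pairs 734 remained called and 96 did not. The count of integrin subunits called moved as follows. For WT at 8 months against 3 weeks it was 3, all lower. It was 4 with DESeq2 (1 higher, Itgb2, and 3 lower), 3 with limma on TPM (1 higher, Itgb2, and 2 lower), 2 with no filter and 1 with a replicate block or with the groups compared alone, and 1 to 3 with a library left out (1 without WT 3-week replicate 1, 2 or 3). For SgshKO against WT at 4 months it was 7, and 4 to 6 with a library left out (4 without WT replicate 1 or SgshKO replicate 2). For the genotype effect at 4 months against 3 weeks it was 3, and 1 to 3 (1 without WT 4-month replicate 1 or 2 or SgshKO replicate 2). For the Mitf ASO against ntc it was 3, 1 with no replicate block and 1 to 3 with a library left out. For the Mitf against the Tfeb ASO it was 2, 0 with no replicate block, 1 with limma on the batch-corrected signal or the groups alone, and 1 to 2 (1 without Mitf replicate 1 or 2 or Tfeb replicate 2, 3 or 4). For the Tfeb against the Tfe3 ASO it was 1, 0 with no replicate block, 2 with DESeq2 or the groups alone, and 1 to 2 (2 without Tfeb replicate 1). For the Tfeb ASO against ntc it was 0, and 1 with DESeq2, limma or the groups alone. For the Mitf against the Tfe3 ASO it was 0, and 1 with DESeq2 or limma. For the combination in SgshKO it was 3, 1 without grp and 0 within grp 1 or grp 2. The causes of these moves were not tested. Fits within grp 1 or grp 2, with the groups alone or with a library left out also held fewer libraries.

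In the age series residuals of same-numbered libraries correlated at -0.171 to 0.115, over 0.1 in 1 of 9 pairs, and in the SgshKO ASO set, within grp, r was 0.0839 to 0.612, over 0.1 in 5 of 8 pairs. A replicate block left 9 subunits called at 8 months, 7 at 4 months, 3 at 3 weeks and 3 with the combination. Low counts limit Itgal and Itga4. With log2(TPM + 1) Itgal was 2.07 and Itga4 1.52 at 8 months, against 4.18 and 4.06, since the pseudocount of 1 exceeds their WT level. Counts over all genes moved by over 1.5 times too. With no replicate block the Mitf ASO changed 211 genes in place of 1128, the Tfeb ASO 9 in place of 80 and the Tfe3 ASO 29 in place of 222. Between ASOs 33 replaced 363 (Mitf and Tfeb), 100 replaced 386 (Mitf and Tfe3) and 7 replaced 167 (Tfeb and Tfe3). DESeq2 gave 213 with the Tfeb ASO, 403 with the Tfe3 ASO, 573 between Mitf and Tfeb, 429 between Tfeb and Tfe3, 692 in place of 361 for the genotype effect at 4 months against 3 weeks and 168 in place of 56 at 8 against 4 months. There no filter gave 131 and a replicate block 21. Limma gave 145 with the Tfeb ASO and 284 between Tfeb and Tfe3, and the groups alone 450 and 359. The combination gave 988, 452 without grp, 192 within grp 1 and 430 within grp 2. With 1 library left out the counts over all genes ran from 79 to 140 with the Tfe3 ASO, from 24 to 63 with the Tfeb ASO and from 621 to 970 with the Mitf ASO. They ran from 118 to 458 between Mitf and Tfeb, from 218 to 303 between Mitf and Tfe3 and from 48 to 568 between Tfeb and Tfe3. For the genotype effect they ran from 100 to 699 at 4 months against 3 weeks and from 4 to 125 at 8 against 4 months. For the genotypes at 4 months they ran from 1441 to 2708 (2794 with all libraries), and for WT over age from 664 to 1156 (1094 with all). With limma on log2(TPM + 1), over its own set of 12021 genes, the median of all genes was -0.12 at 4 months and -0.14 at 8 months. Among genes that passed, the share that were higher then went from 64.7% to 49.2% (8 months against 3 weeks). It went from 66.1% to 52.5% (8 against 4 months) and from 50.7% to 39.8% (SgshKO over age). With a pseudocount of 0.1 it went from 64.5% to 52.6% (4 months against 3 weeks).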
